A study of Homo sapiens with 12 samples.

Results

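The genes described here are 10 that place B cells in and around the germinal centre, taken by name from the 28278 genes of the count table: S1PR2, S1PR1, GNA13, P2RY8, ARHGEF1, CXCR4, CXCR5, CCR6, CCR7 and GPR183. All 10 were in the table, 9 had at least 1 count, and 8 had enough counts to be tested. They were counted by MARS-seq, a 3′-end RNA sequencing method, in OCI-Ly7, an established line of human diffuse large B-cell lymphoma, and in 3 lines edited by CRISPR from it. Set against wild type were a line of genotype EZH2 Y646N (gain of function, here the EZH2 mutant), a line of genotype kmt2d-/- (loss of function, here the KMT2D mutant) and a line of genotype kmt2d-/- + EZH2 Y646N (here the double mutant). All lines were untreated and share the OCI-Ly7 background, the labels do not say how many clones each edited line holds, and a difference between lines cannot be told apart from one between clones. There were 3 libraries of every line except the EZH2 mutant, which had 2, since its replicate 3 was not analysed here.

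In a germinal centre, sphingosine-1-phosphate (S1P) is low and the lipids and chemokines around it are arranged in gradients that hold B cells in place. S1PR2 and P2RY8 are receptors that signal through the G protein subunit Gα13, encoded by GNA13, to the exchange factor ARHGEF1, which restrains migration and AKT signalling, and this arm is often mutated in germinal centre lymphomas. S1PR1 draws lymphocytes out towards S1P, CXCR4 draws them to the dark zone, CXCR5 to the follicle and light zone, CCR7 to the T-cell zone, and GPR183 to the outer follicle. CCR6, the receptor of CCL20, marks memory B cells and their precursors. EZH2 places the repressive methyl mark on lysine 27 of histone H3 and KMT2D methylates lysine 4 of histone H3 at enhancers.

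Levels are given as normalised CPM, the count of a gene per 1000000 counts of its library, scaled by the trimmed mean of M-values over the tested genes. Changes are log2 fold changes ± standard error (SE), and adjusted p-values are from the quasi-likelihood test of edgeR, adjusted by the method of Benjamini and Hochberg over all 8813 tested genes, with 0.05 as the threshold for a call. Total counts ran from 1118710 to 3107871 per library, so that 3 counts correspond to between 2.68 and 0.965 CPM before scaling. Log2 CPM correlated at 0.960 between the EZH2 mutant libraries and at 0.969 to 0.983 within the other lines. Between lines it ran from 0.874 to 0.971, so some pairs of different lines correlated more closely than the EZH2 mutant libraries did. EZH2 mutant replicate 1 was the shallowest library, so several results of that line, but not all, are also given without it. KMT2D was not lower in the lines labelled kmt2d-/-, with changes of 0.19 in the KMT2D mutant (adjusted p = 0.74) and 0.46 in the double mutant (adjusted p = 0.23), and EZH2 did not pass the test in any mutant line. Counts from 3′ ends check neither a point mutation nor a deletion elsewhere in the gene. The labelled cell type was a B cell, and all 6 B-cell markers were counted in every line, with line means of their summed level between 5856 and 10325 CPM. Of 6 germinal centre markers, LMO2 and SERPINA9 were at 0 in all libraries, and the list's summed level averaged 365 CPM for wild type, 385 for the KMT2D line, 258 for the EZH2 line and 245 for the double mutant. Summed markers of T and NK cells, myeloid cells, and fibroblasts and epithelium averaged at most 1.26 CPM in any line.

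The 250 bases before the transcription start are shown for S1PR2, CXCR5 and CCR6, because these 3 genes were called between lines and differ in their content of CG dinucleotides, the sites of DNA methylation that are dense in the promoters Polycomb proteins bind. Capitals mark each CG. The sequences are from RefSeq on GRCh38.p14, at chr19:10231332-10231581 on the minus strand for S1PR2, chr11:118893142-118893391 on the plus strand for CXCR5 and chr6:167111545-167111794 on the plus strand for the first of 3 listed starts of CCR6.
S1PR2: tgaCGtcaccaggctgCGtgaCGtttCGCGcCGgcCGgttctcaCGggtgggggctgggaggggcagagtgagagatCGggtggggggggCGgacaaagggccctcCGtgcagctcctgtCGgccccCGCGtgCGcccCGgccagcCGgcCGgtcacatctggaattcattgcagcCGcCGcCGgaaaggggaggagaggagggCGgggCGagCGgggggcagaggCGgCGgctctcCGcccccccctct
CXCR5: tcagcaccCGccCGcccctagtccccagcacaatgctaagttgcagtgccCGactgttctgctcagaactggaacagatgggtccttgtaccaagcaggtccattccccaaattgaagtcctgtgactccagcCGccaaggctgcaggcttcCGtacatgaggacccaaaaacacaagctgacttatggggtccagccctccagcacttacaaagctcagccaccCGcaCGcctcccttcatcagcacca
CCR6: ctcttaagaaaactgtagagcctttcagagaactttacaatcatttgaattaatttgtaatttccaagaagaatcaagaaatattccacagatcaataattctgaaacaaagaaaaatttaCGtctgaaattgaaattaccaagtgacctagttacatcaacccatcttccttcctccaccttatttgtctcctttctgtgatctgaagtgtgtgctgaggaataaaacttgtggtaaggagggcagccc

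The S1PR2 window held 27 CG dinucleotides, more than 82.6% of the 27195 RefSeq promoter windows of the same length, whose median was 11. The CXCR5 window held 7 (more than 41.6% of windows), and the CCR6 window held 1 (more than 6.36%). Windows were listed for 9 of the 10 genes, the exception being CCR7. Among the remaining 6 genes the first listed window held from 2 CG for GPR183 to 39 for GNA13. A loose form of the binding core of BCL6, the germinal centre repressor, was searched as TTCNNNGAA. It allows any base at N and reads the same on both strands. It occurred 2 times in the CCR6 window shown and 1 time in the second CCR6 window. None of the windows of the other 8 genes held it, and 6.79% of all windows did. The octamer of B-cell promoters (ATGCAAAT, either strand, in 1.66% of all windows) occurred in the third CCR6 window, and the FOXO core (GTAAACA, either strand, in 2.97%) in none. These matches describe letters and were not tested as binding sites.

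S1PR2 was lower in all 3 mutant lines, CXCR4 in the EZH2 mutant, and CXCR5 higher in the KMT2D mutant but lower in the double mutant. CCR6 was higher in the EZH2 mutant, and ARHGEF1 lower in the KMT2D mutant. In the EZH2 mutant against wild type, 1 of the 8 tested genes was called higher and 2 lower, beside 17.1% of all tested genes called higher and 15.1% lower (32.3% in all). In the KMT2D mutant, 1 was higher and 2 lower, beside 3.18% and 4.48% (7.66% in all). In the double mutant none was higher and 2 were lower, beside 12.1% and 11.6% (23.7% in all). With upper-quartile factors the split over all genes was 11.5% higher and 20% lower in the EZH2 mutant. In the double mutant it was then 8.26% higher and 15% lower. At an unadjusted p under 0.05 the counts were 4, 5 and 3 of 8. The share of all genes at that threshold is not given here, and the shares above are at the adjusted one, so no excess can be read from these counts. The median log2 change of the 8 was -0.43, 0.11 and -0.33 in these 3 comparisons, beside medians of all genes of -0.039, 0.0044 and -0.014. These 3 comparisons share the wild-type libraries. CCR6 passed the minimum of 4.62 CPM in 2 libraries only through the EZH2 mutant and CCR7 only through the KMT2D mutant, so their counts in those lines had to be high for them to be tested.

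**Figure D1:**
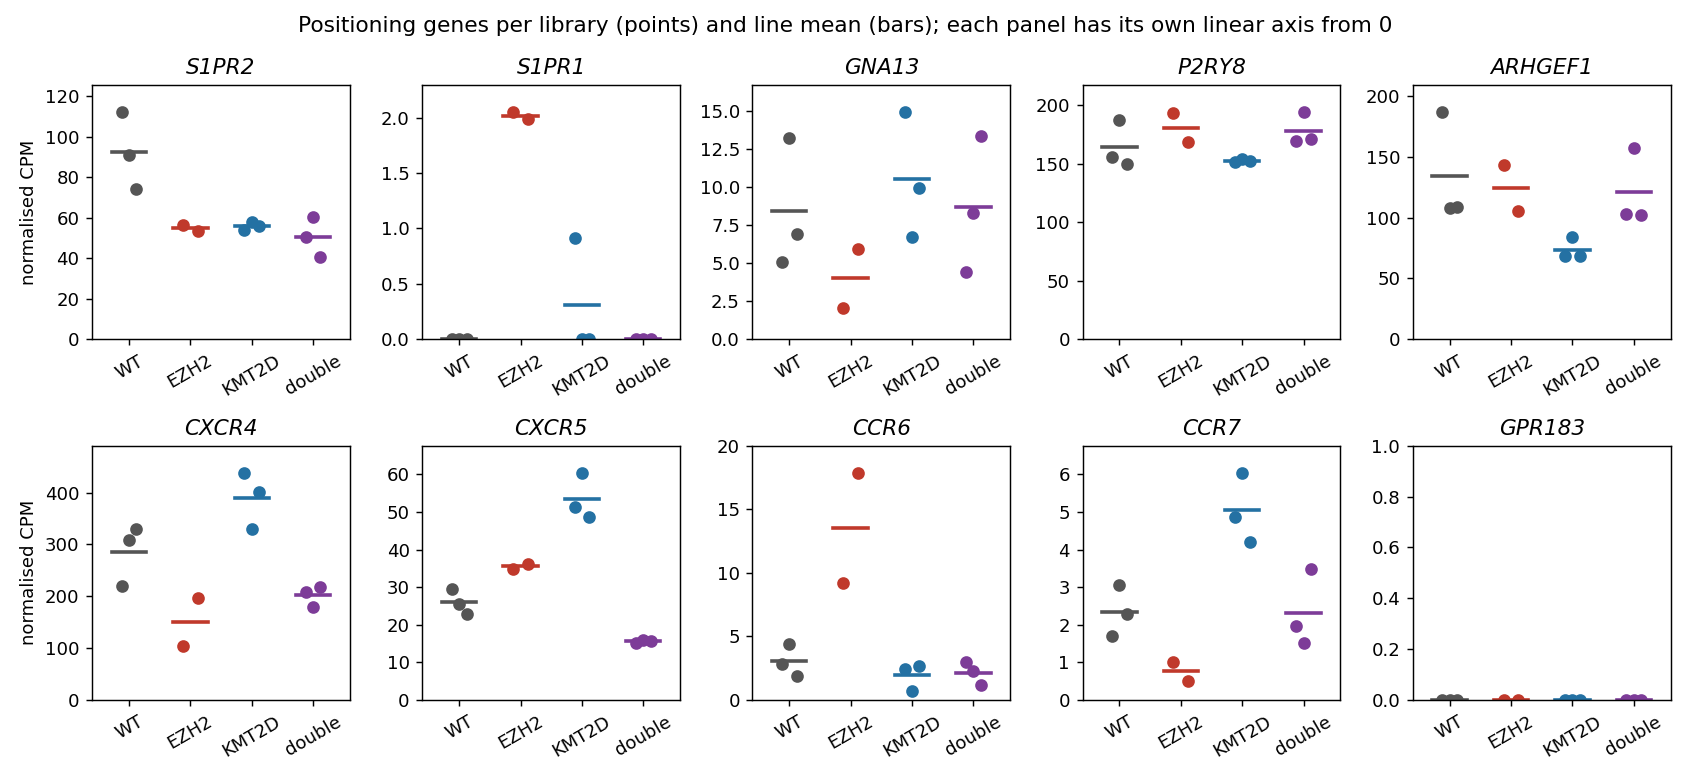
Normalised CPM of the 10 genes in each of the 11 libraries (points) with the mean of each line (bars), on a linear axis from 0 that differs between panels. All wild-type libraries of S1PR2 lie above all mutant libraries, all double mutant libraries of CXCR5 lie below all others, and GPR183 is at 0 throughout.

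S1PR2, the receptor that confines B cells to the germinal centre, had wild-type values of 112, 90.8 and 74.0 CPM. The EZH2 mutant gave 56.3 and 53.6 CPM, the KMT2D mutant 53.9, 57.7 and 55.9, and the double mutant 50.3, 60.4 and 40.7. Every mutant library was below every wild-type library, and the 3 mutant lines overlapped one another. The wild-type mean was 92.3 ± 19.1 CPM (SD, n = 3), against 55.0 ± 1.92 (n = 2) for EZH2 Y646N alone, 55.9 ± 1.91 (n = 3) for kmt2d-/- alone and 50.5 ± 9.87 (n = 3) for both. S1PR2 fell 1.67-fold in the EZH2 mutant (-0.74 ± 0.20, adjusted p = 0.0085), 1.65-fold in the KMT2D mutant (-0.72 ± 0.17, adjusted p = 0.0096) and 1.83-fold in the double mutant (-0.87 ± 0.17, adjusted p = 0.0013). None of the 3 comparisons among mutant lines was called for S1PR2. The interaction, which is the double mutant's change minus the sum of the changes of the single mutants, was 0.59 on the log2 scale (adjusted p = 0.29). The KMT2D mutant call was lost without wild type replicate 1 (adjusted p = 0.060), KMT2D mutant replicate 1 (0.057) or KMT2D mutant replicate 3 (0.055), and the EZH2 mutant call without EZH2 mutant replicate 2 (0.065). Without EZH2 mutant replicate 1 the EZH2 mutant's change was -0.75 (adjusted p = 0.038).

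S1PR2 and ARHGEF1 lie on different arms of chromosome 19, and the genes around S1PR2 had small median changes. Among the 50 tested genes nearest to S1PR2 in RefSeq order, from NDUFA7 to SMARCA4, the median change was -0.05 in the KMT2D mutant, with 2 called lower and 0 higher. In the EZH2 mutant that median was 0.10 (3 lower, 13 higher) and in the double mutant 0.02 (4 lower, 10 higher). A median does not show what single neighbours did, and whether S1PR2 changed separately from them was not tested.

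P2RY8, the second receptor that couples to Gα13, showed no call in any comparison. Wild type had 156, 188 and 150 CPM, the EZH2 mutant 194 and 168, the KMT2D mutant 151, 154 and 152, and the double mutant 169, 194 and 171. Wild-type values overlapped those of every mutant line, while both lines with mutant EZH2 lay above the KMT2D mutant without overlap. The changes were 0.13 ± 0.14 in the EZH2 mutant (adjusted p = 0.52), -0.11 ± 0.13 in the KMT2D mutant (adjusted p = 0.67) and 0.11 ± 0.13 in the double mutant (adjusted p = 0.57). Against the KMT2D mutant they were 0.24 in the EZH2 mutant (adjusted p = 0.18) and 0.22 in the double mutant (adjusted p = 0.17), and the interaction was 0.10. With upper-quartile factors the changes of the EZH2 mutant and the double mutant against wild type came out below 0, at -0.05 and -0.01. P2RY8 lies in the pseudoautosomal region, with identical copies on X and Y, so the way reads with 2 places were counted bears on its level.

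GNA13, the Gα13 subunit itself, was counted at few reads. Wild type gave 5.09, 13.3 and 6.90 CPM, the EZH2 mutant 2.05 and 5.96, the KMT2D mutant 14.9, 6.71 and 9.96, and the double mutant 4.44, 8.31 and 13.4. The EZH2 mutant lay below the KMT2D mutant without overlap, and all other pairs of lines overlapped. In the same order, line means were 8.42 ± 4.29 CPM (SD, n = 3), 4.0 ± 2.76 (n = 2), 10.5 ± 4.14 (n = 3) and 8.71 ± 4.48 (n = 3). GNA13 was not called in any comparison. Its largest differences were -0.93 ± 0.59 in the EZH2 mutant against wild type (adjusted p = 0.23) and -1.27 ± 0.57 against the KMT2D mutant (adjusted p = 0.079). The latter was called without a filter (adjusted p = 0.024), with only these lines in the fit (adjusted p = 0.044) and without KMT2D mutant replicate 2 (adjusted p = 0.0498). Both values moved with single libraries: without EZH2 mutant replicate 2 they were -2.07 (adjusted p = 0.16) and -2.40 (adjusted p = 0.076), and without EZH2 mutant replicate 1 they were -0.53 (adjusted p = 0.60) and -0.85 (adjusted p = 0.32). Without wild type replicate 2 the first was -0.47 (adjusted p = 0.60). The interaction of GNA13 was 0.57 (adjusted p = 0.78).

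ARHGEF1, the exchange factor that Gα13 activates, was lower in the KMT2D mutant than in the other lines. The KMT2D mutant gave 68.2, 83.9 and 68.5 CPM, against 187, 108 and 109 for wild type, 143 and 105 for the EZH2 mutant and 103, 157 and 102 for the double mutant. The KMT2D mutant did not overlap any other line, and the other 3 lines overlapped one another. ARHGEF1 was 1.83-fold lower in the KMT2D mutant than in wild type (-0.87 ± 0.22, adjusted p = 0.026). It was 1.64-fold higher in the double mutant than in the KMT2D mutant (0.71 ± 0.23, adjusted p = 0.021) and 1.68-fold higher in the EZH2 mutant (0.75 ± 0.26, adjusted p = 0.027). Its interaction was 0.83 ± 0.34 (adjusted p = 0.24), and called without a filter (0.85, adjusted p = 0.014). All 3 calls were lost without KMT2D mutant replicate 1 (adjusted p = 0.12, 0.078 and 0.093) and without KMT2D mutant replicate 3 (adjusted p = 0.13, 0.088 and 0.11). The first was also lost without wild type replicate 1 (-0.58, adjusted p = 0.090), the double mutant's without double mutant replicate 2 (0.49, adjusted p = 0.10), and the EZH2 mutant's without EZH2 mutant replicate 1 (0.57, adjusted p = 0.19) or with upper-quartile factors (0.54, adjusted p = 0.075).

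Most tested genes around ARHGEF1 were lower in the KMT2D mutant as well. Among the 50 nearest tested genes on chromosome 19, from C19orf47 to BCL3, the median change in the KMT2D mutant was -0.91 (53.1% of the wild-type level), with a range from -1.67 to 0.38, 48 lay below 0, and 32 were called lower and 0 higher. ARHGEF1 differed from that median by 0.04 on the log2 scale, and 26 of the 50 fell further than it did. In the double mutant, which is also labelled kmt2d-/-, the same neighbours had a median of 0.17 and ARHGEF1 lay at -0.15 (adjusted p = 0.65), or at 0.14 without wild type replicate 1. Against the KMT2D mutant, these neighbours had a median of 1.05 in the double mutant (40 called higher, 1 lower), where ARHGEF1 lay at 0.71. In the EZH2 mutant against the KMT2D mutant their median was 1.21 (38 higher, 2 lower), with ARHGEF1 at 0.75. Whether the changes of ARHGEF1 are separate from those of its region was not tested.

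**Figure D2:**
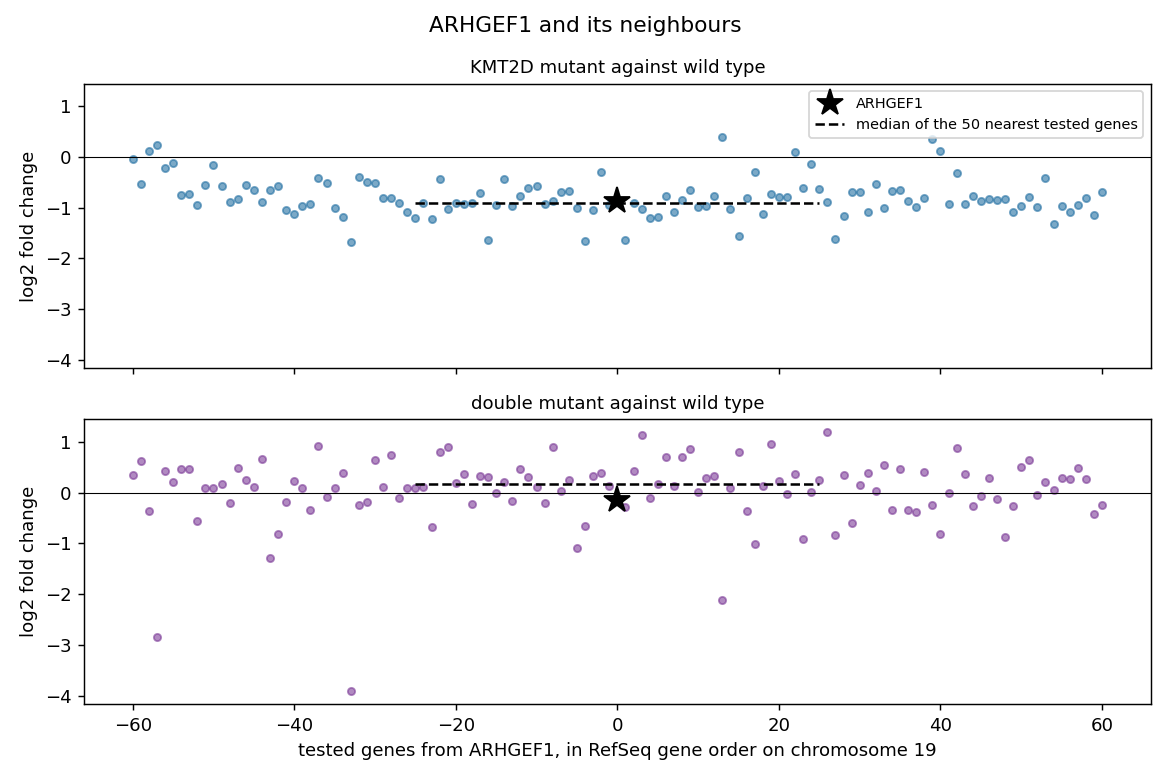
Log2 fold change against wild type (y axis) of ARHGEF1 (star) and of the tested genes around it, in RefSeq gene order on chromosome 19 (x axis, in genes), in the KMT2D mutant (top) and the double mutant (bottom). The dashed line is the median of the 50 nearest genes, -0.91 in the KMT2D mutant, where the star lies close to it, and 0.17 in the double mutant.

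S1PR1, the receptor that S1PR2 opposes, had 9 counts in all and did not pass the filter. With no filter on low counts it was called in 1 comparison, the EZH2 mutant against wild type (adjusted p = 0.013). It had 2 and 4 counts in the EZH2 mutant libraries, 3 in KMT2D mutant replicate 1, and 0 in the other 8 libraries. For ratios scaled by the total counts of each line, 0 counts were set to a floor of 3 over the line. So set, S1PR1 was 4.25-fold higher in the EZH2 mutant (6 counts) than in wild type (0 counts). It was 3.20-fold lower in the double mutant (0 counts) than in the EZH2 mutant. These ratios take the 6 counts as exact and are not lower bounds. Against the KMT2D mutant the EZH2 mutant was 4.22-fold higher, with a 95% exact interval of 0.901 to 26.1 that covers counting error only.

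CXCR4, the dark-zone receptor, had the highest counts of the 10 genes and was lowest where EZH2 was mutant. Wild type had 221, 308 and 329 CPM and the KMT2D mutant 438, 329 and 402. The EZH2 mutant had 103 and 198 CPM and the double mutant 208, 180 and 218. All 5 libraries with mutant EZH2 lay below all 6 libraries without it, while wild type overlapped the KMT2D mutant and the EZH2 mutant overlapped the double mutant. Line means were 286 ± 57.5 CPM (SD, n = 3), 390 ± 55.6 (n = 3), 151 ± 66.6 (n = 2) and 202 ± 19.8 (n = 3) in that order. CXCR4 fell 1.86-fold in the EZH2 mutant against wild type (-0.90 ± 0.23, adjusted p = 0.0088). It was also lower against the KMT2D mutant, 2.53-fold in the EZH2 mutant (-1.34 ± 0.23, adjusted p = 0.00034) and 1.93-fold in the double mutant (-0.95 ± 0.20, adjusted p = 0.0015). The double mutant against wild type missed the threshold (-0.50 ± 0.20, adjusted p = 0.082). It passed without a filter (adjusted p = 0.00077), with DESeq2 (adjusted p = 0.048), with only these lines in the fit (adjusted p = 0.014), and without wild type replicate 1 (adjusted p = 0.027) or either EZH2 mutant library (adjusted p = 0.014 and 0.016).

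The KMT2D mutant had CXCR4 values 0.45 ± 0.19 above wild type on the log2 scale (adjusted p = 0.20), called only without a filter (adjusted p = 0.034). The EZH2 mutant's call rests on its replicate 1, which had the lowest CXCR4 value: without it the change was -0.52 (adjusted p = 0.088). The double mutant against the EZH2 mutant was at 0.39 (adjusted p = 0.45), and at 0.98 without EZH2 mutant replicate 2 (adjusted p = 0.039). The interaction was -0.05 ± 0.30 (adjusted p = 0.96), so the double mutant lay close to the sum of the single-mutant changes, and leaving out 1 library moved it between -0.42 and 0.53.

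CXCR5, the follicle receptor, was the only one of the 8 tested genes called in the interaction. Values were 15.3, 15.9 and 15.7 CPM for the double mutant, 29.4, 25.5 and 23.0 for wild type, 34.8 and 36.2 for the EZH2 mutant and 51.5, 60.4 and 48.6 for the KMT2D mutant. The 4 lines did not overlap, in the order double mutant, wild type, EZH2 mutant, KMT2D mutant. Line means in that order were 15.6 ± 0.289 CPM (SD, n = 3), 26.0 ± 3.24 (n = 3), 35.5 ± 1.00 (n = 2) and 53.5 ± 6.15 (n = 3). CXCR5 rose 2.06-fold in the KMT2D mutant against wild type (1.04 ± 0.17, adjusted p = 0.00058) and fell 1.65-fold in the double mutant (-0.72 ± 0.20, adjusted p = 0.014). Of the neighbours in the order, wild type and EZH2 mutant were not separated by the test (0.47 ± 0.21, adjusted p = 0.090). The EZH2 mutant was 1.49-fold below the KMT2D mutant (-0.57 ± 0.20, adjusted p = 0.024), a call lost with DESeq2 (adjusted p = 0.064) and without KMT2D mutant replicate 2 (0.066), EZH2 mutant replicate 1 (0.12) or EZH2 mutant replicate 2 (0.098).

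The double mutant was below both single mutants for CXCR5, 2.28-fold below the EZH2 mutant (-1.19 ± 0.23, adjusted p = 0.0055) and 3.40-fold below the KMT2D mutant (-1.76 ± 0.19, adjusted p = 9.8e-07). The sum of the single-mutant changes lay above wild type and the measured double mutant below it, which gave an interaction of -2.23 ± 0.28 (adjusted p = 7.7e-05). The call in the double mutant against wild type was lost without double mutant replicate 1 (-0.71, adjusted p = 0.053), and that against the EZH2 mutant without EZH2 mutant replicate 2 (-1.15, adjusted p = 0.063). The interaction was called in all 18 alternatives run for it. The 50 genes nearest to CXCR5 on chromosome 11, from DLAT to STT3A, had a median change of -0.15 in the KMT2D mutant, and of 0.01 with both changes.

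**Figure D3:**
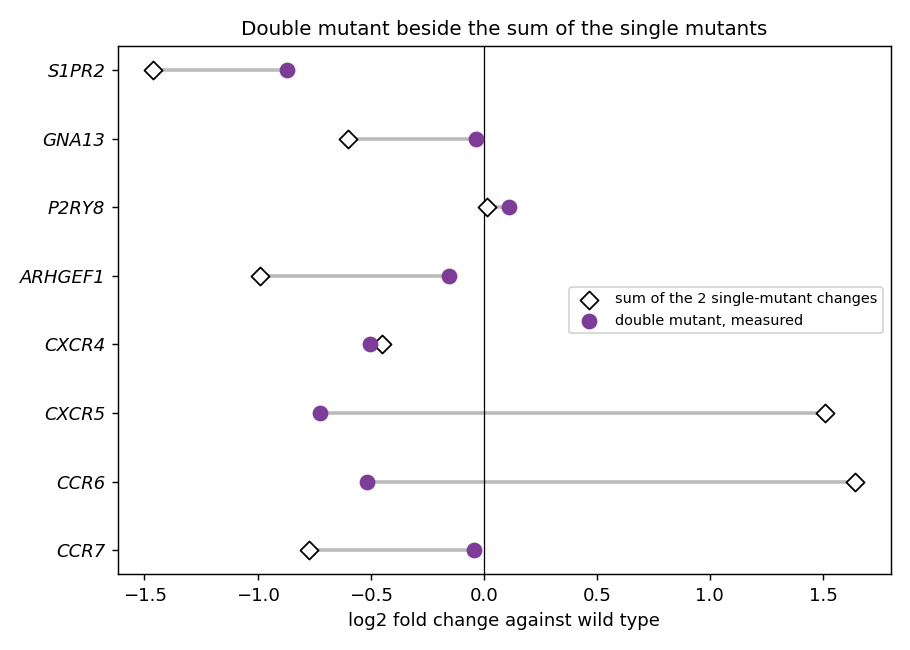
Log2 fold change against wild type of the 8 tested genes in the double mutant (filled circles) and the sum of the changes of the EZH2 mutant and the KMT2D mutant (open diamonds). The line between the symbols is the interaction: longest for CXCR5 (-2.23) and CCR6 (-2.16), of which CXCR5 was called, and shortest for CXCR4 (-0.05) and P2RY8 (0.10).

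CCR6, the memory-type receptor, was higher in the EZH2 mutant than in any other line. The EZH2 mutant libraries held 9 and 36 counts, wild type 5, 13 and 5, the KMT2D mutant 8, 1 and 7, and the double mutant 6, 3 and 2. As CPM these were 9.22 and 17.9, then 1.92 to 4.42, 0.671 to 2.68, and 1.16 to 2.96. The EZH2 mutant did not overlap the other 3 lines, which overlapped one another. CCR6 was 4.53-fold higher in the EZH2 mutant than in wild type (2.18 ± 0.47, adjusted p = 0.0016) and 6.58-fold higher than in the KMT2D mutant (2.72 ± 0.49, adjusted p = 0.00023). It was 6.48-fold lower in the double mutant than in the EZH2 mutant (-2.70 ± 0.53, adjusted p = 0.0070). The changes of the KMT2D mutant (-0.54, adjusted p = 0.63) and the double mutant (-0.52, adjusted p = 0.56) against wild type were not called. CCR6 passed the filter only through its EZH2 mutant counts. All its called comparisons include that line, so their p-values are not free of the filter's choice.

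The interaction of CCR6 was -2.16 ± 0.79 and was not called (adjusted p = 0.16). Most of the counts behind the EZH2 mutant level came from replicate 2. Without it the change against wild type was 1.54 (adjusted p = 0.13) and that of the double mutant against the EZH2 mutant -2.05 (adjusted p = 0.18). Without EZH2 mutant replicate 1 they were 2.52 (adjusted p = 0.0015) and -3.03 (adjusted p = 0.0042).

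CCR7, which guides B cells to the T-cell zone, had few counts and was ordered opposite to CCR6 in the single mutants. The EZH2 mutant libraries held 1 and 1 counts, wild type 3, 9 and 6, the double mutant 4, 2 and 6, and the KMT2D mutant 16, 9 and 11. In CPM these were 1.02 and 0.496, 1.70 to 3.06, 1.51 to 3.49, and 4.21 to 6.04. The EZH2 mutant lay below all other lines and the KMT2D mutant above them without overlap, while wild type and double mutant overlapped. CCR7 was called in 1 comparison, the EZH2 mutant against the KMT2D mutant (-2.76 ± 0.77, adjusted p = 0.0068). From summed counts, 2 against 36, the EZH2 mutant was 8.54-fold lower, with a 95% exact counting interval of 2.20 to 73.2. That call was lost without EZH2 mutant replicate 2 (-2.20, adjusted p = 0.13). CCR7 passed the filter only through its KMT2D mutant counts, so the p-value of the call is not free of the filter's choice. The order opposite to CCR6 is not free of it either, since CCR6 passed only through the EZH2 mutant.

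Against wild type, CCR7 was 4.24-fold lower in the EZH2 mutant from 2 against 18 summed counts, with a counting interval of 1.02 to 37.7 and a fitted change of -1.77 (adjusted p = 0.12). In the KMT2D mutant it was at 1.00 ± 0.44 (adjusted p = 0.20). The double mutant was at -1.04 against the KMT2D mutant (adjusted p = 0.093) and at 1.72 against the EZH2 mutant (adjusted p = 0.37), and the interaction was 0.73 (adjusted p = 0.80).

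GPR183, the oxysterol receptor of the outer follicle, had 0 counts in all 11 libraries. With 22567667 counts in all, a count of 0 allows a level of up to 0.133 CPM before scaling.

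**Figure D4:**
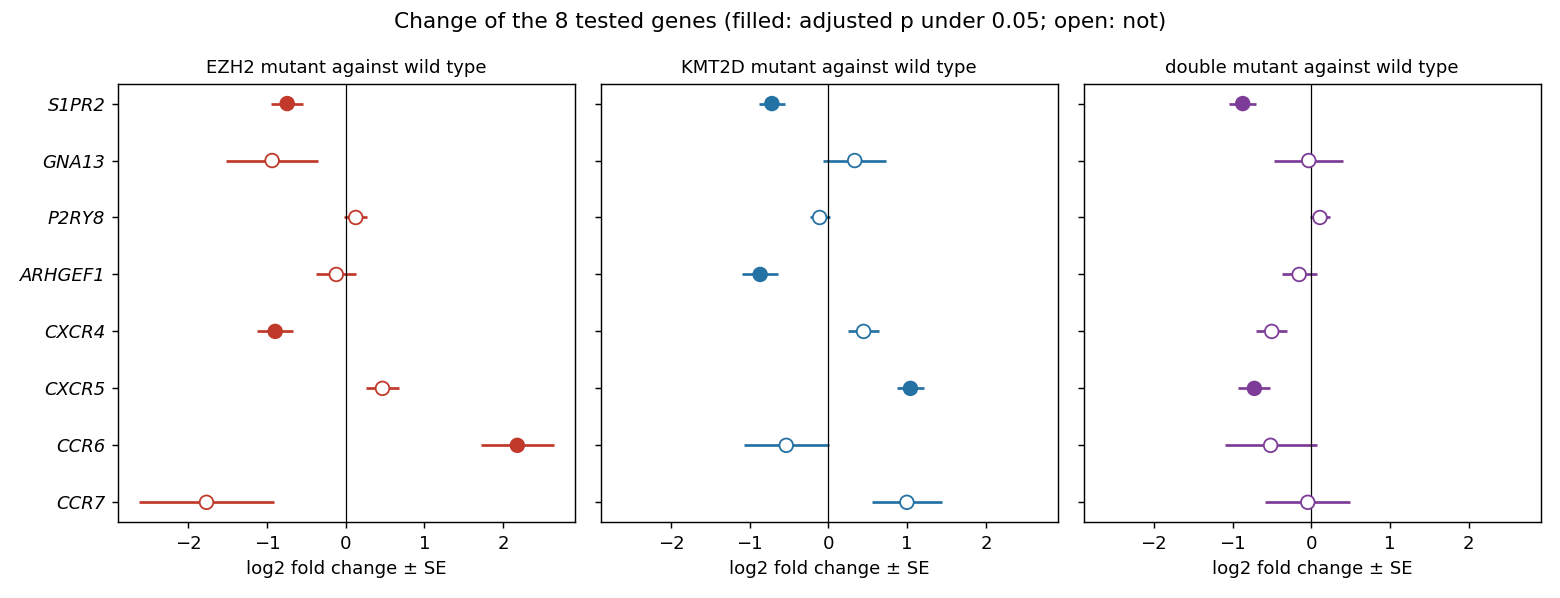
Log2 fold change against wild type ± SE of the 8 tested genes in the EZH2 mutant, the KMT2D mutant and the double mutant. Filled symbols passed the adjusted p of 0.05: S1PR2 in all 3 panels, CXCR4 and CCR6 in the first, ARHGEF1 and CXCR5 in the second and CXCR5 in the third.

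Among the mutant lines, the double mutant differed from the EZH2 mutant in 2 of the 8 genes, CXCR5 and CCR6, both lower, beside 2.29% of all tested genes called in either direction. It differed from the KMT2D mutant in 3, ARHGEF1 higher and CXCR4 and CXCR5 lower, beside 41.9% of all genes. The EZH2 mutant differed from the KMT2D mutant in 5, CCR6 and ARHGEF1 higher and CXCR4, CXCR5 and CCR7 lower, beside 45.8%. The interaction was called for 1 of 8, CXCR5, beside 3.02%. At an unadjusted p under 0.05 the count was 4, with no share of all genes given at that threshold. The medians of the 8 genes were -0.03, -0.26, -0.30 and 0.33 in these comparisons, beside -0.010, -0.017, -0.050 and -0.0011 over all genes. Under the main filter CCR6 was tested only through the EZH2 mutant and CCR7 only through the KMT2D mutant. The calls of these genes, counted above, were thus favoured by the filter. The strict filter of 10 CPM in 2 libraries left 6 of the genes, since it removed CCR6 and CCR7, and the calls against the EZH2 mutant then fell to 1.

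The other genes of the pathway were taken from 6 lists that hold 93 genes beside the 10, of which 47 were tested. In the EZH2 mutant 7 rose and 14 fell, in the KMT2D mutant 4 rose and 1 fell, and in the double mutant 2 rose and 8 fell. These are 21, 5 and 10 of 47 genes, beside 32.3%, 7.66% and 23.7% of all tested genes. By direction, all tested genes gave 17.1% higher and 15.1% lower, 3.18% and 4.48%, and 12.1% and 11.6%. The counts of each list below, of few genes each, stand beside these same shares. The median changes of the 47 genes were -0.16, 0.05 and -0.14. Upper-quartile factors moved the split to 4 higher and 17 lower in the EZH2 mutant. For the double mutant that split became 1 higher and 12 lower. The genes named from each list are those with the smallest adjusted p.

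Of the genes for S1P receptors and metabolism 6 were tested, with 2 called lower in the EZH2 mutant, 2 higher and 1 lower in the KMT2D mutant and 1 lower in the double mutant. S1PR4, a further S1P receptor of lymphocytes, rose in the KMT2D mutant (105 ± 4.68 to 220 ± 27.4 CPM, 1.06 ± 0.13, adjusted p = 8.2e-05). SPNS2, which exports S1P, fell in the EZH2 mutant (4 against 46 counts, 5.42-fold, counting interval 1.98 to 20.7, adjusted p = 0.0081) and in the double mutant (-1.80 ± 0.46, adjusted p = 0.0077). PLPP1, a lipid phosphatase that degrades S1P, rose in the KMT2D mutant (16 to 56 counts, 1.80 ± 0.46, adjusted p = 0.018). SPHK2, a kinase that makes S1P, fell there (-0.87 ± 0.20, adjusted p = 0.011), and it lies 89 tested genes beyond ARHGEF1 on chromosome 19.

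Of 17 tested genes of Gαi and migration signalling, the arm that chemokine receptors use, 2 rose and 6 fell in the EZH2 mutant, none was called in the KMT2D mutant and 2 fell in the double mutant. PREX1, a Rac exchange factor, was at 69.9 ± 5.82 CPM in wild type, 45.4 ± 5.28 in the EZH2 mutant (-0.64 ± 0.21, adjusted p = 0.024) and 4.03 ± 2.03 in the double mutant (-4.19 ± 0.26, adjusted p = 2.1e-09). GNB4, a G protein β subunit, had 54 counts in wild type, 1 in the EZH2 mutant (25.4-fold lower, counting interval 4.38 to 1023) and 6 in the double mutant (6.79-fold lower, counting interval 2.93 to 19.3). RAC1 fell in the EZH2 mutant (-1.51 ± 0.38, adjusted p = 0.0074), where VAV1, a further exchange factor, rose (0.90 ± 0.17, adjusted p = 0.00069).

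Of 11 tested genes of receptor desensitisation, 3 rose and 3 fell in the EZH2 mutant, 1 rose in the KMT2D mutant, and 2 rose and 2 fell in the double mutant. RGS10, which shortens Gαi signals, was at 74.0 ± 1.35 CPM in wild type, 20.2 ± 4.72 in the EZH2 mutant (-1.93 ± 0.24, adjusted p = 1.2e-05), 129 ± 13.4 in the KMT2D mutant (0.81 ± 0.16, adjusted p = 0.0030) and 12.7 ± 4.85 in the double mutant (-2.58 ± 0.21, adjusted p = 6.9e-08). RGS16 fell in both lines with mutant EZH2 (-0.92 ± 0.21, adjusted p = 0.0026, and -0.90 ± 0.18, adjusted p = 0.0012), and RGS19 rose in both (0.74 ± 0.14, adjusted p = 0.00052, and 0.43 ± 0.12, adjusted p = 0.017). RGS2 fell in the EZH2 mutant (-1.23 ± 0.35, adjusted p = 0.011). CD69, which takes S1PR1 off the cell surface, was not tested and had 7 counts in wild type, 16 in the KMT2D mutant and 0 in both lines with mutant EZH2. It was chosen after its values were seen.

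Of 6 tested genes among further positioning receptors, 1 rose and 1 fell in the EZH2 mutant, 1 rose in the KMT2D mutant and none was called in the double mutant. ITGB7, an integrin chain of gut homing, rose in the EZH2 mutant (0.84 ± 0.17, adjusted p = 0.00083), where GPR18, a receptor of B-cell subsets, fell (-1.57 ± 0.37, adjusted p = 0.0038). CCR10, a receptor of plasma-cell homing, rose in the KMT2D mutant (1.19 ± 0.30, adjusted p = 0.017), and CNR2, a cannabinoid receptor, was not called (adjusted p = 0.19, 0.49 and 0.14). Of the 11 genes for ligands and their metabolism 2 were tested. HSD3B7, an enzyme that breaks down the ligand of GPR183, rose in the EZH2 mutant (1.50 ± 0.41, adjusted p = 0.0090), and ABCC1, a transporter that exports the ligand of P2RY8, was not called. The chemokine genes CXCL12, CXCL13, CCL19, CCL20 and CCL21 were at 0 counts in every line.

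Of 5 tested regulators of the receptor genes, 2 fell in the EZH2 mutant, none was called in the KMT2D mutant and 3 fell in the double mutant. Over all tested genes 15.1%, 4.48% and 11.6% were called lower in these lines. BCL6, the germinal centre repressor, was at 119 ± 14.4 CPM in wild type, 39.8 ± 5.54 in the EZH2 mutant (-1.55 ± 0.19, adjusted p = 9.4e-06) and 61.0 ± 4.54 in the double mutant (-0.95 ± 0.15, adjusted p = 0.00017). IRF4, a factor of plasma-cell differentiation, fell in both lines as well (-0.67 ± 0.15, adjusted p = 0.0023, and -0.47 ± 0.13, adjusted p = 0.014). FOXO1, a dark-zone factor, fell in the double mutant (-0.44 ± 0.14, adjusted p = 0.031), and BACH2 was not called (adjusted p = 0.087, 0.35 and 0.058).

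Of the 28 called changes of the genes named from these lists, 14 stayed called in every alternative that tested them and 14 did not, and none changed sign. Without EZH2 mutant replicate 2, the calls of SPNS2, GNB4, RGS2, PREX1 and HSD3B7 in the EZH2 mutant were lost, and without its replicate 1 those of RAC1 (adjusted p = 0.075) and IRF4 (adjusted p = 0.063). PREX1 was lost there without wild type replicate 2 as well (adjusted p = 0.050). In the KMT2D mutant, SPHK2, CCR10 and PLPP1 were each lost without KMT2D mutant replicate 3 and without at least 1 more library. In the double mutant, RGS19, FOXO1, IRF4 and GNB4 were lost without at least 1 library, wild type replicate 2 for all of them but GNB4, which was lost without wild type replicate 3. The calls of RGS10, RGS16 and BCL6 in both lines with mutant EZH2, and of PREX1 in the double mutant, stayed in every alternative.

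**Figure D5:**
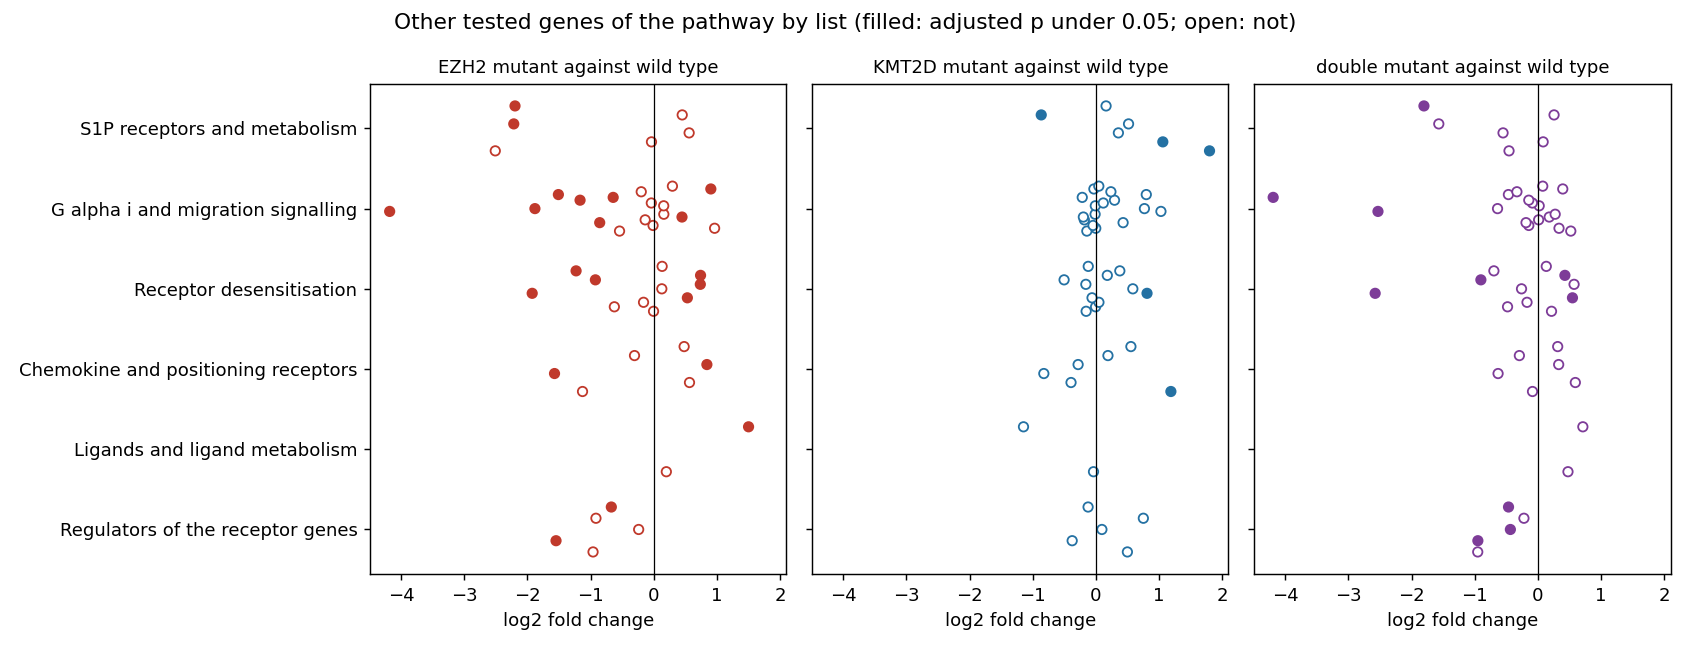
Log2 fold change against wild type (x axis) of the 47 tested genes of the 6 lists, each list on a row, in the EZH2 mutant, the KMT2D mutant and the double mutant. Filled symbols passed the adjusted p of 0.05, 21 in the first panel, 5 in the second and 10 in the third.

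For the 6 genes called in any comparison, the genes with the most similar pattern were taken by Pearson's r of log2 CPM over the 11 libraries, which share lines and depth, as a description among 8577 named genes. S1PR2 was closest to NOP53 (r = 0.939), TERT (0.922) and DNMT1 (0.920), CXCR4 to HSD17B12 (0.987), HMMR (0.982) and ZC3H11A (0.981), and CXCR5 to PGGHG (0.984), BIN1 (0.946) and IFITM2 (0.939). CCR6 was closest to ARPC3 (0.933), SNORD104 (0.919) and SLC6A6 (0.919), CCR7 to MEI1 (0.940), IQGAP3 (0.931) and NUMB (0.930), and ARHGEF1 to BIRC5 (0.960), ASF1B (0.954) and TSPOAP1 (0.943). None of the 8 tested genes was among the 3 closest to any of these 6. Between the 8, r ran from -0.79 for CCR6 with CCR7 to 0.76 for CXCR4 with CCR7. The filter favoured high EZH2 mutant counts for CCR6 and high KMT2D mutant counts for CCR7, so their r values are not free of its choice. S1PR2 was at 0.50 with ARHGEF1 and between -0.12 and 0.11 with the other 6.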

How the data were processed

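RNA of 4 OCI-Ly7 lines was measured by MARS-seq in 12 samples, of which 11 had a column in the deposited table. The authors deposited counts per gene, called corrected without saying for what. Per the submitters' processing notes the tools were Trim Galore 0.6.0, cutadapt 1.15, FastQC, STAR 2.7.0f and DESeq2, without their roles. Strand, annotation, build and counting program are not given in the sources used here, so antisense or overlapping genes cannot be separated. No other column of per-sample values was left out (0 columns).

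In R 4.3.3, genes were kept by filterByExpr with a minimum count of 10 (8813 of 28278), scaled by TMM and tested with edgeR 4.0.16 (robust quasi-likelihood, 1 term per line, all 11 libraries, 7 comparisons). Each comparison's p-values were adjusted over the 8813 genes by Benjamini-Hochberg. Since the labels do not say whether replicates came from separate cultures, p-values reflect only the spread among these libraries. The SE is the absolute log2 fold change divided by the square root of the F statistic. Low counts were summed per line, divided by line totals and compared with 95% exact binomial intervals. Where 1 line had 0 counts, 0 was replaced by 3 counts per line for a ratio, which leaves out the error of the other count. Intervals and limits cover counting error only. The script was tested on simulated data.

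The 10 genes and the pathway lists were chosen with earlier results of these data known. Another list of pathway genes is not reported here. From each list the text names up to 4 genes with the smallest adjusted p against wild type, and for each called gene the 3 genes of most similar log2 CPM (prior count 2), passing over clone-based names and Y-linked genes. Neighbours were the 25 tested genes on each side in RefSeq gene order. Those of ARHGEF1 were planned, and those of S1PR2 and CXCR5 were added after the data were seen. The alternatives were upper-quartile and RLE factors, no filter, a strict filter (10 CPM in 2 libraries), DESeq2 1.42.0, limma-voom (limma 3.58.1), a replicate block, a fit of only the groups compared (not for the interaction), and leaving out each library in turn.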

Additional observations from a re-analysis of the deposited data

Results flagged for a closer look

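CXCR5 was set apart by a test of the difference between contrasts. CXCR5 was at 0.47 in the EZH2 mutant against wild type and at -1.76 between the 2 lines labelled kmt2d-/- (double mutant against KMT2D mutant). KMT2D counts were not lower in those 2 lines than in wild type (0.19, adjusted p = 0.74, and 0.46, adjusted p = 0.23), and 3′ counts do not check the deletion. The interaction was -2.23 ± 0.28 on the log2 scale (adjusted p = 7.7e-05, edgeR, over 8813 genes), and it ran from -2.32 to -2.15 over 18 alternatives. All 3 double mutant libraries lay below all 8 others. The cause of the interaction was not tested, and a difference between lines cannot be told apart from one between clones.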

How the results depend on the processing

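Of 19 called changes among the 10 genes, 7 kept their direction and call in every alternative that tested them (19 at most), and 12 lost the call in at least 1, mostly on leaving out 1 library. None changed sign. Of 37 changes that were not called, 25 are given in the report; 5 of these became called in some alternative and 4 changed sign. With upper-quartile factors P2RY8 was at -0.046 in the EZH2 mutant and -0.0066 in the double mutant, and the interaction of CXCR4 ran from -0.42 to 0.53 without 1 library. ARHGEF1 in the double mutant ran from -0.38 to 0.14 (without wild type replicate 1). Upper-quartile factors also moved the median of all genes from -0.039 to -0.20 (EZH2 mutant against wild type), from -0.014 to -0.13 (double mutant), from -0.017 to -0.16 (double mutant against KMT2D mutant) and from -0.050 to -0.25 (EZH2 mutant against KMT2D mutant). The other 12 uncalled changes, not printed, include 9 that changed sign. Without 1 library the pathway genes called ranged from 4 to 8 higher (4 without its replicate 1 or wild type replicate 3) and 9 to 14 lower (9 without either of its libraries) in the EZH2 mutant. For the KMT2D mutant they ranged from 2 to 6 higher (2 without its replicate 3 or wild type replicate 1 or 2) and 0 to 2 lower (0 without its replicate 1 or 3). The double mutant gave 1 to 5 higher (1 without its replicate 2 or any 1 wild-type library, 5 without EZH2 mutant replicate 2) and 7 to 10 lower. Shares over all tested genes moved too when 1 library of any line but the EZH2 mutant was left out. They were 12.7% to 17.3% higher and 12.4% to 16.6% lower in the EZH2 mutant. The KMT2D mutant gave 1.66% to 3.62% and 2.27% to 4.34%, and the double mutant 7.51% to 12% and 8.06% to 12.2%. Without a filter the pathway genes called were 7 and 3 in the KMT2D mutant and 14 lower in the double mutant. DESeq2 gave 2 higher in the KMT2D mutant, and the strict filter and the fit of only the groups compared each gave 4 higher in the EZH2 mutant.

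The number of the 10 genes called ranged on leaving out 1 library from 1 to 3 in the EZH2 mutant (1, CXCR4, without its replicate 2), from 1 to 3 in the KMT2D mutant (1, CXCR5, without its replicate 1 or 3 or wild type replicate 1) and from 1 to 3 in the double mutant (1, S1PR2, without its replicate 1). It ranged from 1 to 2 for the double mutant against the EZH2 mutant (1, CXCR4, without EZH2 mutant replicate 2) and from 3 to 5 for the EZH2 mutant against the KMT2D mutant (3 without KMT2D mutant replicate 1 or either EZH2 mutant library). With the strict filter these last 2 counts were 1 and 3, since it removes CCR6 and CCR7. Without a filter the interaction was called for 2, CXCR5 and ARHGEF1, beside 1.95% of all genes higher and 1.25% lower. Calls over all genes also fell where the KMT2D mutant and double mutant counts fell to 1. The KMT2D mutant had 1.66% higher and 2.4% lower without its replicate 1 and 1.7% and 2.27% without its replicate 3. Without wild type replicate 1 it had 2.11% and 2.97%. The double mutant had 7.96% and 8.06% without its replicate 1.

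Replicate numbers are shared between lines, but same-numbered libraries did not deviate together (r from -0.29 to 0.38 over 15 pairs, median -0.025). A replicate block gave 3, 3, 2, 2, 3, 4 and 1 calls in the 7 comparisons, and 1 of these genes' calls was lost under it, ARHGEF1 in the EZH2 mutant against the KMT2D mutant (0.65, adjusted p = 0.057). Depth limits S1PR1, GPR183, CCR7 and CCR6 most.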
